A study of Mus musculus with 8 samples.

Results

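Most proteins of a mitochondrion are made in the cytosol and enter it through protein gates, after which chaperones fold them and proteases trim or destroy them. The transcripts of this import and quality control machinery were followed in newborn mouse epidermis. Genes were taken by symbol: every name that begins with Timm or Tomm, the translocases of the inner and the outer membrane, and 21 named chaperones, proteases, peptidases and prohibitins. The rule matched 48 symbols in the platform's gene table. Of these, 44 had a probe set that names no other gene and were measured, among 22180 genes measured in all. Tomm5, Tomm6, its antisense transcript Tomm6os and Phb lay only on probe sets shared with other genes and have no value of their own. Where a gene had several probe sets, the 1 with the highest mean over the 8 arrays was used.

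The mutant, called K320E below, has the genotype label K320E-TwinkleEpi (4 arrays). It expresses a mutant form of Twinkle by way of a K14 promoter, active in basal keratinocytes. Twinkle is the helicase that unwinds mitochondrial DNA. Control newborns had the genotype R26-K320E-TwinkleloxP/+ (4 arrays), so their label names the same mutant construct. All were C57BL/6J mice at postnatal day 0, and total RNA of the epidermis was hybridised to 1 array per sample. The labels do not say whether each array stands for a different newborn, so every p-value here covers only array-to-array spread, part of which may be technical.

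Proteins with a cleavable presequence cross the outer membrane through the TOM complex and the inner membrane through the TIM23 complex, pulled in by a motor built around the Hsp70 that Hspa9 encodes. Carrier proteins of the inner membrane travel with small TIM chaperones of the intermembrane space to the TIM22 complex. In the matrix, processing peptidases remove the presequence, Hsp60 and Hsp10 fold the protein, and the LON and CLP proteases degrade damaged ones. Several of these genes are used as readouts of the mitochondrial unfolded protein response.

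The arrays differed in ways that bear on the results. K320E replicate 1 was the highest of the 8 arrays in 12 of the 44 members and the lowest in 9, or 27.3% and 20.5%; among all genes it was the highest in 19.4% and the lowest in 16.3%. Sex-linked transcripts differed between arrays within each genotype. In K320E replicate 3 Xist was at 6.84 and 3 Y-linked genes averaged 8.64. The other K320E arrays had Xist at 12.07 to 12.15 and Y-linked averages of 4.75 to 4.82. Xist was at 9.27 in control replicate 2, where the Y-linked genes averaged 9.05. It was at 6.17 in control replicate 3, where they averaged 4.75. Every other array had either Xist or the Y-linked genes high and the other low. Twnk, the gene of Twinkle, measured 8.91 to 9.28 in K320E and 6.55 to 6.95 in controls, so that every K320E array was above every control array. The epidermal keratins Krt14, Krt1 and Krt10 lay between 12.18 and 12.99 on all arrays, near the top of the table's values, 13.13. Medians of the arrays lay between 6.06 and 6.11, and the number of arrays limits the precision.

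The promoters of 5 members are shown because the results below turn on these genes. They are RefSeq windows of GRCm38.p6, each with 250 bases before and 50 after an annotated start, written 5′ to 3′ on the strand of the gene. Lonp1 (chr17:56626854-56627153, minus strand), Dnaja3 (chr16:4683820-4684119, plus strand) and Timm50 (chr7:28311997-28312296, minus strand) were among the members higher in K320E, and Parl (chr16:20302313-20302612, minus strand) was lower. Hspe1 (chr1:55087898-55088197, plus strand) lies head to head with Hspd1, and its window overlaps that of the opposite gene. Capitals mark matches to 6 motifs that were searched on both strands.
Lonp1: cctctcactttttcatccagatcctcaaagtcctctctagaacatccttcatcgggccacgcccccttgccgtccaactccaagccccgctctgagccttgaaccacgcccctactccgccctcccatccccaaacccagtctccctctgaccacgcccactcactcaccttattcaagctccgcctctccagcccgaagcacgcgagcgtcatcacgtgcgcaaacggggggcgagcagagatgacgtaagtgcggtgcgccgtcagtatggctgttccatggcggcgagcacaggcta
Dnaja3: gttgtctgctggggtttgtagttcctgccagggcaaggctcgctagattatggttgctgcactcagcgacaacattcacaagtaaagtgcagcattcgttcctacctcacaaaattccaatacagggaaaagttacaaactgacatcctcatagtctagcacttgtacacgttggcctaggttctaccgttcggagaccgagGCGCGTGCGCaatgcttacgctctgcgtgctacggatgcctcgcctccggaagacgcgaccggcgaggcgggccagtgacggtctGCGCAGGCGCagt
Timm50: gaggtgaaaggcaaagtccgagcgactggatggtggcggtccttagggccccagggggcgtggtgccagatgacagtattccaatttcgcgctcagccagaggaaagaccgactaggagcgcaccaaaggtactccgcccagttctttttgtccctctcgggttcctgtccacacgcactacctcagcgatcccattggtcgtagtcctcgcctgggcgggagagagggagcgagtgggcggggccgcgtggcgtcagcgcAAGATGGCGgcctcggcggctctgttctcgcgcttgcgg
Parl: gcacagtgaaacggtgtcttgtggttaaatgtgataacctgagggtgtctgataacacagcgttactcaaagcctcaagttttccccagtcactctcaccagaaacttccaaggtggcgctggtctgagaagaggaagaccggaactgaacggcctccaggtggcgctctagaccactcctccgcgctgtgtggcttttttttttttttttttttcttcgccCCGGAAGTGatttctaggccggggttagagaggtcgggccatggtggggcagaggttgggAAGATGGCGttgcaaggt
Hspe1: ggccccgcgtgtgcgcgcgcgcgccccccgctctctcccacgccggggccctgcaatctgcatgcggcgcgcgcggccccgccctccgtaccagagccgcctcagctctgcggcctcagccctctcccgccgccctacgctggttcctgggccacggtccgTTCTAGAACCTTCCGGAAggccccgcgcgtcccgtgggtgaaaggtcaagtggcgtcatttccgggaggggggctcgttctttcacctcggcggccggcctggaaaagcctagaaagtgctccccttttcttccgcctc
The capitals in Dnaja3 are matches to the NRF1 motif (GCGCA, any base, then GCGC), which 4.6% of all 32851 promoter windows in the table held. The window of Timm50 holds the YY1 motif AAGATGGCG, found in 1.4% of all windows. In Parl the first match is the GABP motif CCGGAAGTG, found in 2.03% of all windows, and the second is YY1. The capitals in Hspe1 are a pair of overlapping matches to the heat shock element (GAA, any 2 bases, TTC, any 2 bases, GAA), which 0.603% of all windows held. Lonp1 held none of the motifs, and neither did the windows of Timm44 and Tomm40, also higher in K320E, which are not shown. Of the 44 members, 37 had a window, 40 windows in all; the NRF1 motif was found in 6 of these genes, the GABP motif in 8, the heat shock element in 3, YY1 in 2 and the CRE TGACGTCA in 1 (1.79% of all windows). The C/EBP and ATF response element TGATGNAA was found in 0 of the 37, and in 3.97% of all windows. These matches describe the letters in the window and say nothing of a factor's binding.

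In the comparison of K320E with control epidermis, no member passed limma's test over all genes. At an adjusted p under 0.05 the count was 0 of 44, where 0.879% of all genes tested were called. At an unadjusted p under 0.05 it was 12 of 44, or 27.3%, against 14.8% of all genes. Of these, 10 were higher in K320E (8.77% of all genes) and 2 lower (6.06% of all genes). The 10 were Hspa9, Lonp1, Dnaja3, Timm44, Timm50, Tomm40, Timm13, Afg3l2, Timm17b and Tomm40l, and the 2 were Parl and Timm10b. In 8 of the 44 members the 4 K320E arrays did not overlap the 4 control arrays, or 18.2%, against 9.25% of all genes. Of these, 6 were higher in K320E (5.5% of all genes) and 2 lower (3.75% of all genes). The median log2 fold change (K320E minus control) was 0.08 over the members and -0.00052 over all genes, and 28 of 44 fold changes were positive, or 63.6%, against 49.8% of all genes. The mean log2 level of the 44 members was 8.64 to 8.69 in K320E and 8.58 to 8.64 in controls, and control replicate 2 was above the lowest K320E array. Fold changes ran from -0.34 for Timm10b to 0.43 for Timm50, which is 0.791 to 1.35 times the control level. Without K320E replicate 1 the median was 0.04, and 14 members had an unadjusted p under 0.05, or 31.8%, against 13.2% of all genes in that fit. Without control replicates 2 and 3 together it was 0.08 with 9 such members, or 20.5%, against 14.0% of all genes. The adjusted count was 0 in both cases.

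**Figure D1:**
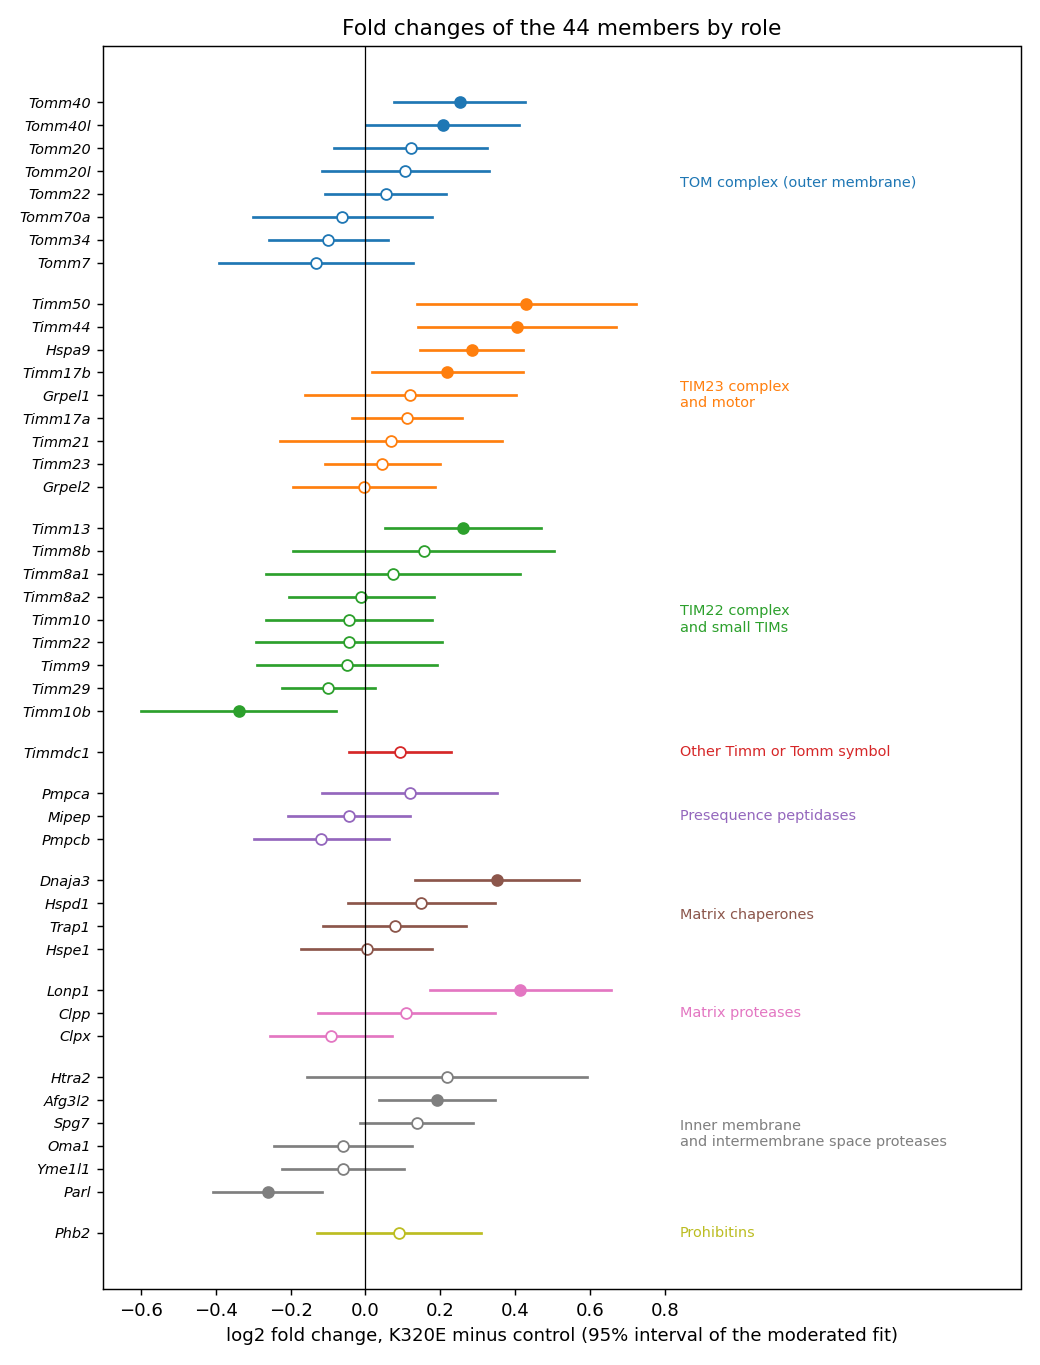
Log2 fold change (K320E minus control, horizontal axis) of each of the 44 members with its 95% interval from limma's fit, grouped and coloured by role. Filled points have an unadjusted p under 0.05; they are 10 to the right of zero and 2 to the left, and the TIM23 complex and motor holds 4 of them.

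In the TOM complex of the outer membrane 8 of 10 genes were measured, and 0 passed the adjusted test. The pore Tomm40 differed most. Its log2 intensity was 7.34, 7.02, 7.24 and 7.06 in K320E replicates 1 to 4, against 6.87, 6.94, 6.96 and 6.87 in control replicates 1 to 4. Every K320E array was above every control array, with a log2 fold change of 0.25 (SE 0.08, adjusted p = 0.180 by limma). Tomm40l, a second form of the pore, averaged 7.38 ± 0.07 on the K320E arrays and 7.18 ± 0.18 on the control arrays (SD, 4 arrays per genotype). It measured 7.43, 7.39, 7.28 and 7.44 in K320E replicates 1 to 4, against 7.42, 7.19, 7.13 and 6.98 in control replicates 1 to 4, which overlap, with a fold change of 0.21 (SE 0.09, adjusted p = 0.334 by limma). The receptors stayed closer to zero. Tomm20, which recognises presequences, measured 9.33, 9.10, 8.94 and 9.01 in K320E replicates 1 to 4, against 8.86, 9.06, 8.94 and 9.03 in control replicates 1 to 4, and the groups overlapped; its log2 fold change was 0.12 (SE 0.09), and 0.042 without K320E replicate 1. Tomm22, the central receptor, measured 9.82, 9.70, 9.68 and 9.66 in K320E replicates 1 to 4, against 9.50, 9.67, 9.71 and 9.77 in control replicates 1 to 4. Its groups overlapped, at 0.05 (SE 0.07) with a 95% interval of -0.11 to 0.21. Tomm70a, which receives carrier proteins, measured 9.12, 9.49, 9.57 and 9.55 in K320E replicates 1 to 4, against 9.44, 9.49, 9.40 and 9.65 in control replicates 1 to 4. It had -0.06 (SE 0.11), with an interval of -0.30 to 0.18. K320E replicate 1 had the lowest Tomm70a level of the 8 arrays, 9.12, and without it the fold change was 0.04. Tomm7, a small subunit, was also lowest on that array. Fold changes of Tomm7, of Tomm34, a cytosolic cochaperone, and of Tomm20l lay between -0.13 and 0.11, all with overlapping groups. Tomm20l averaged 6.21 in K320E and 6.11 in controls, close to the medians of the arrays, and the table gives no detection call.

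The TIM23 complex and its motor held 3 of the 8 members whose groups did not overlap. All 9 genes were measured; 8 had a positive fold change, or 88.9%, against 49.8% of all genes. An unadjusted p under 0.05 was found for 4, or 44.4%, against 14.8% of all genes, and groups that did not overlap for 33.3%, against 9.25% of all genes. Hspa9, the Hsp70 that drives the motor and also folds matrix proteins, had the lowest p of the 44 members and ranked 326 among all 22180 genes. It measured 11.69, 11.70, 11.83 and 11.82 in K320E replicates 1 to 4, against 11.46, 11.42, 11.45 and 11.57 in control replicates 1 to 4. All K320E arrays were above all controls, by 0.28 (SE 0.06, adjusted p = 0.0746 by limma) or 1.22-fold. Its spread within groups was small, with SDs of 0.074 in K320E and 0.067 in controls. Timm44, which tethers this Hsp70 to the channel, measured 8.997, 8.47, 8.45 and 8.51 in K320E replicates 1 to 4, against 8.12, 8.28, 8.19 and 8.22 in control replicates 1 to 4. The groups did not overlap, with a fold change of 0.41 (SE 0.12, adjusted p = 0.162 by limma), and K320E replicate 1 stood well above the other K320E arrays. Without that array the fold change was 0.28 (adjusted p = 0.110 by limma). Timm50, the receptor that hands proteins to the channel, measured 8.84, 8.18, 8.49 and 8.29 in K320E replicates 1 to 4, against 8.15, 8.004, 7.98 and 7.96 in control replicates 1 to 4. It had the highest fold change of the members, 0.43 (SE 0.13, adjusted p = 0.174 by limma), again with K320E replicate 1 on top, and 0.30 without it.

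**Figure D2:**
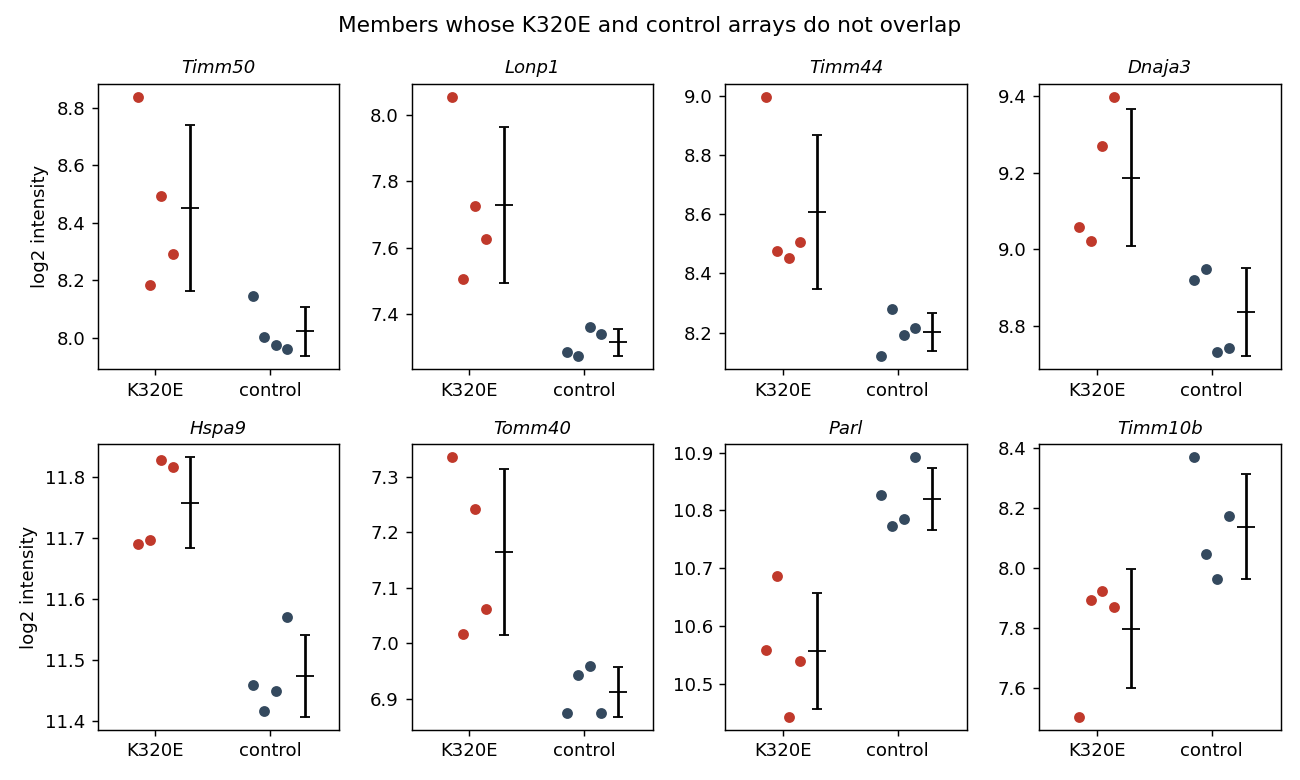
Log2 intensity (vertical axis, a separate scale in each panel) of the 8 members whose groups did not overlap, for the 4 K320E arrays (left) and the 4 control arrays (right). Points are arrays in replicate order, and the bar beside them is the mean ± SD. The first 6 panels are higher in K320E, and Parl and Timm10b lower; K320E replicate 1 is the extreme array in 5 of the 8 panels.

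The channel had smaller fold changes. Timm23, the pore, measured 11.63, 11.37, 11.40 and 11.38 in K320E replicates 1 to 4, against 11.37, 11.45, 11.39 and 11.39 in control replicates 1 to 4. Apart from K320E replicate 1 at 11.63, all arrays lay within 11.37 to 11.45, and the fold change was 0.05 (SE 0.07) with an interval of -0.11 to 0.20. Timm17a, its partner, measured 10.13, 10.17, 10.33 and 10.34 in K320E replicates 1 to 4, against 10.19, 10.10, 10.11 and 10.12 in control replicates 1 to 4, and had 0.11 (SE 0.06) with overlapping groups. Its paralog Timm17b measured 8.18, 8.30, 7.98 and 8.02 in K320E replicates 1 to 4, against 8.07, 7.91, 7.81 and 7.81 in control replicates 1 to 4, with a fold change of 0.22 (SE 0.09, adjusted p = 0.296 by limma) and control replicate 1 above the K320E replicates 3 and 4. The difference between the paralogs was not tested. The nucleotide exchange factors of the motor, Grpel1 and Grpel2, had fold changes of 0.12 (SE 0.12) and -0.00 (SE 0.08). Grpel1 measured 8.41, 8.03, 8.14 and 7.95 in K320E replicates 1 to 4, against 7.72, 8.15, 8.18 and 8.004 in control replicates 1 to 4, with the lowest value in control replicate 1 and the highest in K320E replicate 1. Its fold change was 0.023 without that control array and 0.028 without that K320E array. Grpel2 measured 8.57, 8.69, 8.75 and 8.59 in K320E replicates 1 to 4, against 8.54, 8.86, 8.53 and 8.69 in control replicates 1 to 4, and its interval was -0.19 to 0.19. Timm21, which links the channel to the respiratory chain, had 0.07 (SE 0.13), and control replicate 4 was its lowest array at 8.51.

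Among the 9 genes of the carrier pathway, fold changes pointed both ways, 3 positive and 6 negative, with a median of -0.04. Timm22, the carrier channel, was at 6.29, 6.21, 6.095 and 6.40 in K320E replicates 1 to 4, against 6.31, 6.54, 6.02 and 6.30 in control replicates 1 to 4. These values overlapped and lay near the medians of the arrays; the fold change was -0.04 (SE 0.11). Timm29, a vertebrate subunit of the same complex, had -0.10 (SE 0.06), with an interval of -0.22 to 0.03. The small TIMs shield carriers in the intermembrane space. Timm9 and Timm10, which form the main hexamer, had -0.05 (SE 0.11) and -0.04 (SE 0.10), and Timm8b had 0.16 (SE 0.15). Timm13 measured 8.27, 8.40, 8.11 and 8.01 in K320E replicates 1 to 4, against 7.88, 8.02, 8.02 and 7.82 in control replicates 1 to 4, a fold change of 0.26 (SE 0.09, adjusted p = 0.232 by limma), with K320E replicate 4 just below control replicates 2 and 3. Timm10b, which docks the small TIMs at the TIM22 complex, measured 7.51, 7.89, 7.92 and 7.87 in K320E replicates 1 to 4, against 8.37, 8.05, 7.96 and 8.17 in control replicates 1 to 4. All K320E arrays were below all controls, with a fold change of -0.34 (SE 0.12, adjusted p = 0.219 by limma).

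Probe sets disagreed for Timm10b. A second probe set of the gene had a fold change of 0.15. It averaged 6.07 ± 0.11 in K320E and 5.93 ± 0.09 in controls (SD over 4 arrays per genotype). These levels were near the medians of the arrays, where signal over background cannot be judged. The mean of both probe sets gave -0.10. A probe set that Timm10b shares with Arfip2 had 0.12 (SE 0.06, adjusted p = 0.408 by limma over all probe sets), so that both had the opposite sign to the probe set used. Timm8a1, partner of Timm13, had 3 probe sets. The brightest had 0.07 (SE 0.15), and another measured 7.09, 6.97, 7.19 and 7.17 in K320E replicates 1 to 4, against 6.48, 6.79, 6.69 and 6.85 in control replicates 1 to 4, with no overlap and a fold change of 0.40 (SE 0.09, adjusted p = 0.101 by limma over all probe sets). The third had 0.17. Timm8a2, a further copy of the gene, was at 6.55 in K320E and 6.57 in controls. Timmdc1 carries a Timm symbol but takes part in the assembly of complex I, and had 0.09 (SE 0.06).

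None of the 3 peptidases that trim imported proteins had an unadjusted p under 0.05. Pmpcb, the catalytic subunit of the processing peptidase, measured 9.49, 9.63, 9.81 and 9.79 in K320E replicates 1 to 4, against 9.77, 9.87, 9.72 and 9.82 in control replicates 1 to 4, a fold change of -0.12 (SE 0.08) that was -0.054 without K320E replicate 1. Its partner Pmpca had 0.12 (SE 0.10), and Mipep, which removes further residues, had -0.04 (SE 0.07). The 3 intervals together reached from -0.30 to 0.35.

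Of the 4 matrix chaperones, 1 had groups that did not overlap (25%, against 9.25% of all genes), Dnaja3. This gene encodes a J-domain partner of the Hspa9 protein, and measured 9.06, 9.02, 9.27 and 9.40 in K320E replicates 1 to 4, against 8.92, 8.95, 8.73 and 8.74 in control replicates 1 to 4. Its groups did not overlap, and the fold change was 0.35 (SE 0.10, adjusted p = 0.143 by limma). The gene had 3 probe sets. When every probe set was tested on its own, a choice made after seeing the data, a second Dnaja3 probe set was the only 1 of the members' 49 to pass (0.512% of all 33793 probe sets did). That probe set measured 6.71, 6.75, 7.12 and 6.69 in K320E replicates 1 to 4, against 5.97, 6.29, 5.99 and 6.01 in control replicates 1 to 4. It rose by 0.75 (SE 0.11, adjusted p = 0.0304 by limma), with each K320E array above each control. Its controls averaged 6.07, close to the medians of the arrays, where signal over background cannot be judged. The call was lost in 7 of the 8 fits that left out an array, with limma adjusted p up to 0.0841. The third Dnaja3 probe set had 0.28, with its highest value in K320E replicate 3, so all 3 were positive and of unequal size.

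Hspd1, which encodes Hsp60, measured 10.87, 11.06, 11.24 and 11.12 in K320E replicates 1 to 4, against 10.89, 11.00, 11.01 and 10.80 in control replicates 1 to 4. The groups overlapped, K320E replicate 1 being the lowest array but 1, and the fold change was 0.15 (SE 0.09, adjusted p = 0.485 by limma); without that array it was 0.22 (adjusted p = 0.274 by limma). Without K320E replicate 3, the highest array, it was 0.094 (adjusted p = 0.713 by limma). Hspe1, its Hsp10 lid, which shares the head-to-head promoter shown above, measured 10.46, 10.61, 10.52 and 10.77 in K320E replicates 1 to 4, against 10.48, 10.65, 10.58 and 10.64 in control replicates 1 to 4. Its fold change was 0.00 (SE 0.08), the highest p of the 44 members, with an interval of -0.17 to 0.18. Trap1, the mitochondrial Hsp90, measured 7.94, 8.18, 8.08 and 8.08 in K320E replicates 1 to 4, against 7.89, 8.21, 7.98 and 7.90 in control replicates 1 to 4. Its groups overlapped, with 0.08 (SE 0.09) and 0.041 to 0.15 when an array was left out. Levels of different genes cannot be set against each other on this array.

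Of the 3 matrix proteases, 1 had groups that did not overlap, or 33.3%, against 9.25% of all genes. Lonp1, the ATP-dependent protease that removes oxidised and misfolded matrix proteins, measured 8.06, 7.51, 7.73 and 7.63 in K320E replicates 1 to 4, against 7.29, 7.27, 7.36 and 7.34 in control replicates 1 to 4. The groups did not overlap. The fold change was 0.41 (SE 0.11, adjusted p = 0.124 by limma), or 1.33-fold, and 0.30 without K320E replicate 1 (adjusted p = 0.120 by limma). The controls lay close together, with an SD of 0.041, and the K320E arrays farther apart, with an SD of 0.236. Clpp, the proteolytic chamber, measured 7.87, 7.40, 7.42 and 7.46 in K320E replicates 1 to 4, against 7.33, 7.49, 7.45 and 7.44 in control replicates 1 to 4. Only K320E replicate 1 was above the controls, and without it the fold change was -0.0026. Clpx, the unfoldase that feeds the chamber, measured 10.44, 10.41, 10.58 and 10.52 in K320E replicates 1 to 4, against 10.41, 10.68, 10.64 and 10.59 in control replicates 1 to 4. Its fold change was -0.09 (SE 0.07), with an interval of -0.25 to 0.07.

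**Figure D3:**
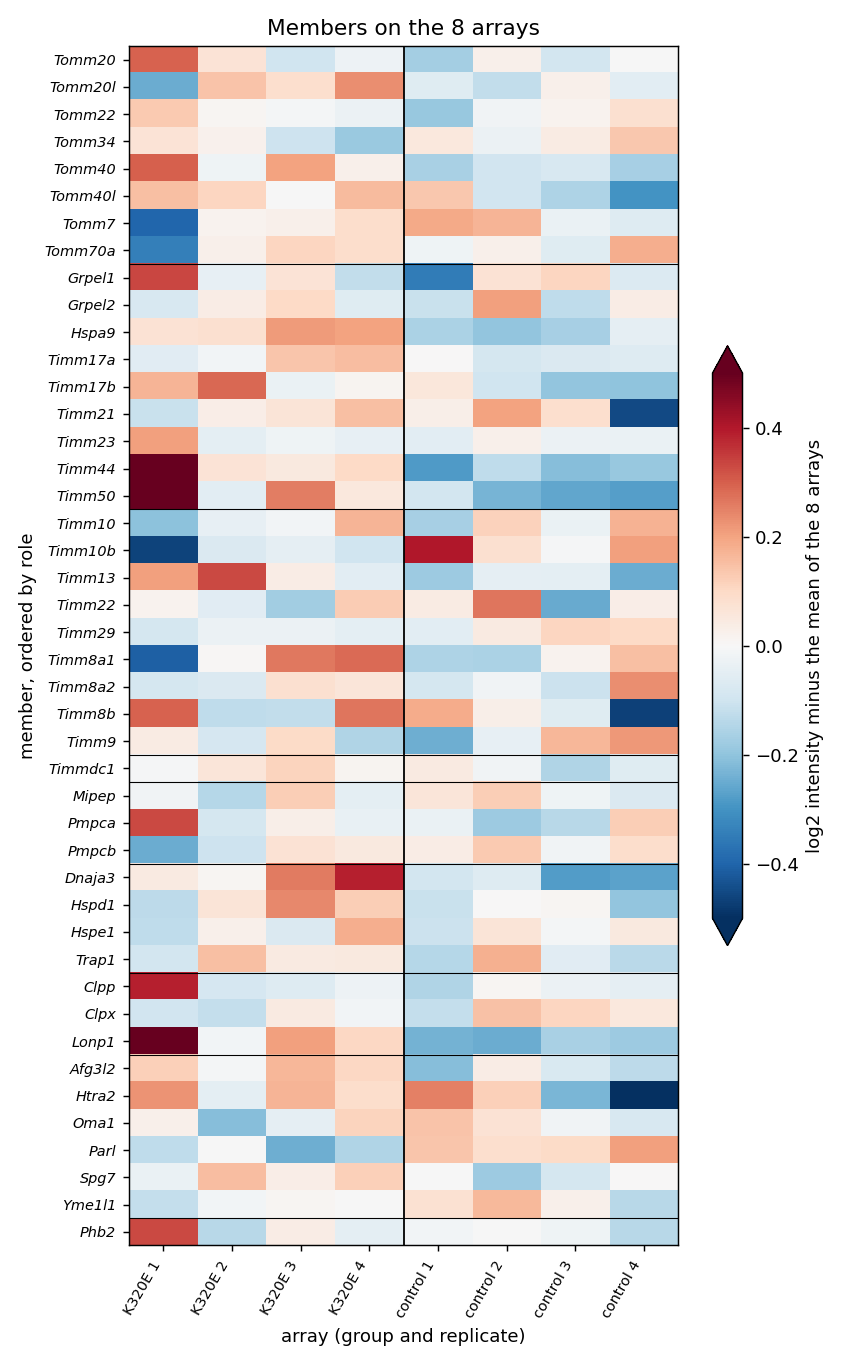
Each member's log2 intensity minus its mean over the 8 arrays (colour), with members in rows ordered by role and arrays in columns, K320E left of the line and controls right. Hspa9 and Timm44 are above their mean on all 4 K320E arrays and below it on all 4 controls, and the darkest red cells, those of Timm44, Timm50 and Lonp1, are in K320E replicate 1.

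Among the 6 proteases of the inner membrane and the intermembrane space, 3 fold changes were positive and 3 negative. Parl, the rhomboid protease that cleaves PINK1 and other proteins within the membrane, measured 10.56, 10.69, 10.44 and 10.54 in K320E replicates 1 to 4, against 10.83, 10.77, 10.79 and 10.89 in control replicates 1 to 4. Every K320E array was below every control, with a fold change of -0.26 (SE 0.06, adjusted p = 0.110 by limma) or 0.834 times the control level, and it ranked second by p among the members. Afg3l2, a subunit of the AAA protease that faces the matrix, measured 9.51, 9.38, 9.56 and 9.49 in K320E replicates 1 to 4, against 9.18, 9.43, 9.31 and 9.26 in control replicates 1 to 4. Control replicate 2 lay above K320E replicate 2, and the fold change was 0.19 (SE 0.07, adjusted p = 0.241 by limma). Its partner Spg7, mutated in a human spastic paraplegia, had 0.14 (SE 0.07). Yme1l1, the AAA protease that faces the intermembrane space, measured 9.77, 9.88, 9.90 and 9.89 in K320E replicates 1 to 4, against 9.97, 10.05, 9.92 and 9.75 in control replicates 1 to 4, a fold change of -0.06 (SE 0.07) with overlapping groups. Oma1, the stress-activated protease that cleaves OPA1 and DELE1, measured 8.22, 7.98, 8.15 and 8.30 in K320E replicates 1 to 4, against 8.33, 8.26, 8.17 and 8.11 in control replicates 1 to 4, with -0.06 (SE 0.08) and an interval of -0.24 to 0.13. Htra2 had 0.22 (SE 0.17), and its controls were wide, with an SD of 0.375. Phb2, the prohibitin that forms rings around the AAA protease facing the matrix, measured 10.52, 10.05, 10.23 and 10.15 in K320E replicates 1 to 4, against 10.18, 10.19, 10.17 and 10.05 in control replicates 1 to 4. The groups overlapped, with 0.09 (SE 0.10).

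The other genes of the pathway were taken as 2 lists, whose counts at an unadjusted p under 0.05 stand against 8.77% of all genes higher and 6.06% lower. Of the other import genes 14 of 18 were measured; 0 were called, 4 were higher and 1 lower at that threshold, 35.7% in all, and the median fold change was 0.07. The highest was Chchd4, the oxidoreductase that traps cysteine-rich proteins such as the small TIMs. It measured 8.22, 7.55, 7.80 and 7.82 in K320E replicates 1 to 4, against 7.20, 7.35, 7.37 and 7.47 in control replicates 1 to 4, with no overlap and a fold change of 0.50 (SE 0.13, adjusted p = 0.124 by limma). The lowest was Immp1l, an inner membrane peptidase, at -0.29. Of 11 other chaperones and proteases, all measured, 0 were called, 5 were higher and 1 lower at that threshold, 54.5% in all, with a median of 0.17. Ppif, the prolyl isomerase cyclophilin D, was the highest at 0.68 (SE 0.22, adjusted p = 0.196 by limma) and had its top value, 10.18, in K320E replicate 1; it was 0.48 without that array. Hscb, a cochaperone of iron-sulfur cluster assembly, was the lowest at -0.33 (SE 0.09, adjusted p = 0.150 by limma), with groups that did not overlap.

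Chaperones of other compartments had medians of the same sign. Of 15 cytosolic chaperones measured, 0 were called, 6 were higher, or 40%, and 0 lower at an unadjusted p under 0.05, with a median of 0.12; of all genes, 8.77% were higher and 6.06% lower. Hsph1 was the highest at 0.34, with 0.18 without control replicate 4, its lowest array at 7.51, and 0.22 without K320E replicate 3. Hspa8 was the lowest at -0.03, which turned to 0.043 with quantile normalisation. Of 14 chaperones of the endoplasmic reticulum, 0 were called, 7 were higher, or 50%, and 0 lower at that threshold, with a median of 0.17. Hspa5, the Hsp70 of that compartment, was the highest at 0.48 (SE 0.15, adjusted p = 0.175 by limma), and Pdia3 the lowest at -0.07. Among 9 mitochondrial carriers, channels and matrix enzymes the median was 0.06, from -0.23 for Mpc1 to 0.31 for citrate synthase, Cs; Mpc1 ranged from -0.34 to -0.12 when an array was left out. No test compared these lists with the members.

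**Figure D4:**
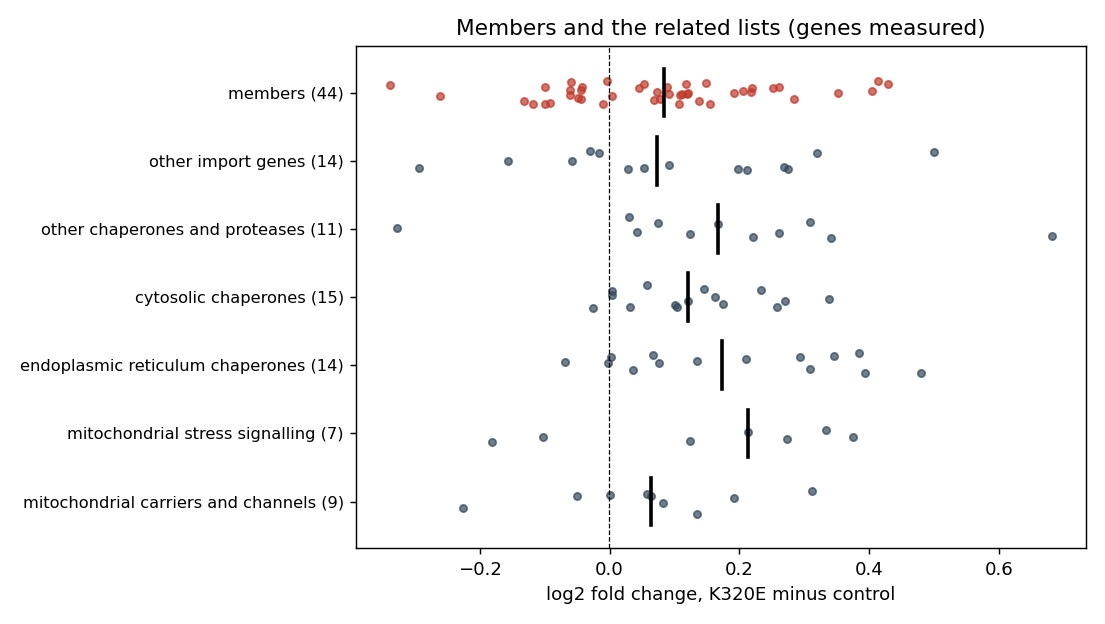
Log2 fold change (K320E minus control, horizontal axis) of the members (top) and of 6 lists of related genes; points are genes, thick bars the median of each list, and the dashed line the median of all genes. The medians of the members and of the 6 lists lie between 0.06 and 0.21.

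Genes that signal mitochondrial stress to the nucleus were also followed. Of 7 measured, 1 was called, where 0.685% of all genes were called higher. Ddit3, which encodes the transcription factor CHOP, measured 8.16, 8.08, 8.30 and 8.26 in K320E replicates 1 to 4, against 7.94, 7.86, 7.74 and 7.77 in control replicates 1 to 4. It rose by 0.38 (SE 0.07, adjusted p = 0.0497 by limma), and the call was lost in 7 of the 8 fits that left out an array. Eif2ak1, the kinase that DELE1 activates, was the lowest at -0.18 (SE 0.08, adjusted p = 0.350 by limma). Atf4 and Atf5, transcription factors of the integrated stress response, were chosen after their values were seen, and their fold changes were 0.33 and 0.27. The groups of Ddit3, Atf4 and Atf5 did not overlap, 3 of the 7 genes or 42.9%, against 9.25% of all genes.

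Marker transcripts of other cells also differed between the arrays, and in bulk samples fewer cells of a type and less RNA per cell cannot be told apart. The mean log2 level of 8 skeletal muscle genes was 6.64 to 7.88 in K320E and 6.14 to 7.05 in controls, highest in K320E replicate 3, and all 8 fold changes were positive. Muscle is rich in mitochondria. On the same array Hspa9 was highest, at 11.83, while Lonp1, Timm44 and Timm50 were highest in K320E replicate 1. The muscle level of K320E replicate 1, 7.40, was also above the highest control level, 7.05. Those of K320E replicates 2 and 4, 6.64 and 6.71, were below those of control replicates 2 and 3, 7.05 and 6.95. Hspa9 measured 11.70 and 11.82 on these K320E arrays, and 11.42 and 11.45 on these controls. The 10 hair structure genes averaged 7.04 to 7.48 in K320E and 7.56 to 9.10 in controls, all with negative fold changes, and control replicate 4 was the highest array. Without control replicate 4, 8 members had an unadjusted p under 0.05, or 18.2%, against 12.8% of all genes in that fit, and they were the 8 whose groups did not overlap. Sebocyte genes averaged 6.38 to 6.76 in K320E and 6.93 to 8.14 in controls, and adipocyte genes 6.47 to 7.62 in K320E and 6.40 to 6.54 in controls. Keratinocyte genes averaged 11.88 to 11.99 in K320E and 11.75 to 11.91 in controls, a difference of 0.09. Among them Krt14 had 0.27 (SE 0.07, adjusted p = 0.141 by limma), with every K320E array above every control. The other keratinocyte genes lay between -0.03 and 0.18. The 4 Langerhans and dendritic cell genes measured averaged 6.97 to 7.07 in K320E and 7.22 to 7.43 in controls, all with negative fold changes. Of these, 1 was called, H2-Ab1, at -0.98 (SE 0.13, adjusted p = 0.0129 by limma), where 0.194% of all genes were called lower. Epcam had -0.18, Cd207 -0.07 and Itgax -0.03. T cell genes averaged 5.80 to 6.52 in K320E and 6.47 to 7.17 in controls, and melanocyte genes 8.63 to 9.04 in K320E and 8.92 to 9.47 in controls. Fibroblast genes averaged 7.40 to 8.01 in K320E and 7.18 to 7.85 in controls, and endothelial genes 5.68 to 6.30 in K320E and 5.79 to 5.81 in controls. Macrophage genes averaged 7.01 to 7.49 in K320E and 7.10 to 7.47 in controls, but did not move together. Cd68 had 0.51 (SE 0.14, adjusted p = 0.137 by limma) with groups that did not overlap, while Adgre1, Csf1r and Mrc1 lay between -0.31 and -0.10. Mast cell genes averaged 6.22 to 7.01 in K320E and 5.95 to 6.53 in controls. Of 5 neutrophil genes, Cxcr2 had a fold change of 1.32 (SE 0.37, adjusted p = 0.147 by limma), while Ly6g, Elane, Mpo and Csf3r lay between -0.02 and 0.10; the 5 averaged 5.88 to 5.94 in K320E and 5.40 to 5.89 in controls. The part of any of these cell types in the results above was not tested.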

How the data were processed

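Total RNA of newborn epidermis was measured on 8 arrays, 4 of K320E and 4 of control mice. The authors deposited log2 intensities per probe set, per the labels and the deposited table; how they were background corrected, normalized and summarised is not given in the sources used here. Array medians were nearly equal, so the log2 values as deposited were used unchanged. Of 33793 probe sets, 23521 named 1 gene in the platform annotation, 1814 several and 8458 none, and the 23521 gave 22180 genes. limma 3.58.1 in R 4.3.3 (lmFit, eBayes) tested K320E minus control on all genes, with Benjamini-Hochberg adjustment over all of them and a threshold of 0.05. Intervals are 95% intervals of that fit, on 9.17 degrees of freedom, and the fit was tested on simulated data. The members, the related lists and the cell type lists were chosen with earlier results of these data known, so their counts are descriptions and no list was tested. Values on every array were given for the members with an adjusted p under 0.05, the 10 with the lowest p, a defining gene of each role, and members whose probe sets differ in sign. Of the related lists, called genes and the highest and lowest fold changes were named. Alternatives were other normalizations, the mean over probe sets, a filter on low genes, intensity trend, array weights, a replicate block, each array left out, and control replicates 2 and 3 left out together. Promoter windows and gene names come from RefSeq tables.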

Additional observations from a re-analysis of the deposited data

Results flagged for a closer look

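Within each group of 4 arrays, the highest or lowest array was set against the others by Dixon's test at the 95% level, 88 tests over the 44 members. Chance marks about 1 in 20 such groups, and 6 of 88 stood out. K320E replicate 1 accounted for 5 of the 6. It was the highest K320E array for Timm44, at 8.997 with the others at 8.45 to 8.51, for Timm23, at 11.63 with the others at 11.37 to 11.40, and for Clpp, at 7.87 with the others at 7.40 to 7.46. It was the lowest for Timm10b, at 7.51 with the others at 7.87 to 7.92, and for Tomm7, at 7.88 with the others at 8.30 to 8.37. Among controls, Phb2 was lowest in replicate 4, at 10.05 with the others at 10.17 to 10.19.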

How the results depend on the processing

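The adjusted count of members was 0 under all 16 other settings, and 1 when every probe set was tested on its own, an alternative chosen after seeing the data. Members with an unadjusted p under 0.05 numbered 12, and 8 to 14 when an array was left out, against 12.8% to 14.5% of all genes. Those higher in K320E numbered 10, against 8.77% of all genes in the fit of all 8 arrays. They numbered 6 to 12 when an array was left out, 6 being without control replicate 4 and 12 without K320E replicate 1. In either direction, 12.8% and 13.2% of all genes had such a p in these fits. Members whose groups did not overlap numbered 8, and 8 to 14 when an array was left out, 14 being without control replicate 1; the share of all genes was 9.25%, and 12.4% to 13.7% when an array was left out (13.5% without control replicate 1). Without control replicates 2 and 3 together 11 members did not overlap, against 24.0% of all genes. The members' median log2 fold change was 0.08, and 0.043 to 0.091 when an array was left out. All genes called numbered 195, and 53 to 173 when an array was left out, 53 being without K320E replicate 3; fewer arrays enter those fits. Of the 14 other import genes measured, 5 had an unadjusted p under 0.05, against 14.8% of all genes. They numbered 3 with array weights, against 14.5% of all genes. When an array was left out they numbered 2 to 5, 2 being without control replicate 1, against 13.3% of all genes in that fit. Correlations of same-numbered deviations were 0.05, -0.06, 0.08 and 0.14, which cannot settle whether the replicate numbers pair the samples. With the replicate block 114 genes and 0 members were called. In that fit 11 members, or 25.0%, had an unadjusted p under 0.05, against 15.1% of all genes.

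Signs were followed only for members chosen above for values on every array, and for called, highest or lowest genes of the related lists. Among these, reversals were seen for 12 genes, all with fold changes within 0.11 of zero, and their cause was not tested. When an array was left out, Tomm22 ranged from -0.00063 to 0.089, Tomm70a from -0.11 to 0.043, Grpel2 from -0.046 to 0.065, Timm23 from -0.015 to 0.069, Timm22 from -0.14 to 0.037, Hspe1 from -0.057 to 0.046, Clpp from -0.0026 to 0.15, Oma1 from -0.11 to 0.0013, Phb2 from -0.0056 to 0.15 and Hspa8 from -0.057 to 0.0094. Without control replicates 2 and 3 together, Grpel2 was 0.035, Yme1l1 0.0014, Pdia3 0.030 and Hspa8 1.6e-05. Grpel2 was 0.0089 with median centring and 0.0090 with array weights. With quantile normalisation Hspe1 was -0.010 and Hspa8 0.043, and Hspa8 was 0.083 with the mean over probe sets. The table gives no detection call or background, so signal over background cannot be judged for members near the array medians.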

Other observations

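The 4 symbols without a probe set of their own lie on shared probe sets, whose values belong to no single gene. A probe set shared by Phb, which encodes the prohibitin partner of Phb2, and 1700071K01Rik had a log2 fold change (K320E minus control) of 0.05, at 7.01 ± 0.15 in K320E and 6.95 ± 0.41 in controls (SD over 4 arrays per genotype). One shared by Tomm6, a small subunit of the TOM complex, and Tomm6os had 0.03. Probe sets shared by Tomm5, another small subunit, and Gm8069 had 0.02 and 0.23, and 1 shared by both with Pa2g4 had 0.05. Those shared by Tomm6os and Prickle4 had -0.12 and -0.11. A probe set shared by Inpp5e and Pmpca had 0.02, and 1 shared by Arfip2 and Timm10b 0.12.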
